A study of Mus musculus with 8 samples.

Results

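Broad H3K9me1 blocks were examined in wild-type mouse embryonic fibroblasts (MEFs), cells cultured from mouse embryos. These are regions of the deposited H3K9me1 list on chromosomes 1 to 19 that measured at least 30 kb, so the members were chosen by region width, a measured value. There were 1615 such blocks among 42704 H3K9me1 regions, and 41080 narrower H3K9me1 regions on the same chromosomes served for comparison. The study mapped histone H3 with 1, 2 or 3 methyl groups on lysine 9 (termed H3K9me1, H3K9me2, H3K9me3) by chromatin immunoprecipitation and sequencing (ChIP-seq), with 2 replicates for each mark and for input DNA. All 8 samples carried the label wild type, and the study's methods describe the line as MEFs with a conditional (floxed) Eset1 allele that had not received tamoxifen, so every map here comes from cells with an intact but conditional methyltransferase gene. That line is 1 clone, grown from a sorted single cell and chosen for high activity of tamoxifen-inducible Cre. Each mark has 1 list of regions for its 2 replicates, with no value per replicate and no read depth, so no SD over samples could be given. The lists hold no expression values, and the fibroblast label could not be checked against marker genes.

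Histone H3 can carry up to 3 methyl groups on lysine 9. H3K9me2 and H3K9me3 are known from silent chromatin, where H3K9me3 is bound by HP1 proteins, while H3K9me1 is both the first step towards these states and a mark found along the bodies of transcribed genes. G9a and Glp add H3K9me1 and H3K9me2 at euchromatic loci, Suv39h1 and Suv39h2 add H3K9me3 at constitutive heterochromatin, and Setdb1 (Eset1) acts at retrotransposons. Vertebrate promoters fall into those with a CpG island, a stretch in which the CG dinucleotide has been kept, and those that are poor in CG.

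Sequences of gene starts inside and outside the blocks are shown to make their CG content visible. The 8 sequences below are 200 bases of GRCm38, from 100 bases before the annotated 5' end of a protein-coding gene onwards, written 5' to 3' with every CG in capitals. They belong to the 4 genes with the most bases in blocks whose start lay inside a block (Syne1, Syn3, Lama2, Adcy8) and the 4 with the most whose start did not (Gm20388, Ank3, Anks1b, Trappc9).
Syne1 (chr10:5551383-5551582, minus strand): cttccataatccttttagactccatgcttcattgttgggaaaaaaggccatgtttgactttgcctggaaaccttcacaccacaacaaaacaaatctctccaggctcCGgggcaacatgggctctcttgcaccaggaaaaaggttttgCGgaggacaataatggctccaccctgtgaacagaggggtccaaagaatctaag
Syn3 (chr10:86498797-86498996, minus strand): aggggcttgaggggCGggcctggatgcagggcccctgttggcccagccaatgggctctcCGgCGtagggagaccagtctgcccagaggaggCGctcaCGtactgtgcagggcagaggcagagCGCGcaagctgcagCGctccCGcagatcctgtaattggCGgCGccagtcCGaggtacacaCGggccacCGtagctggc
Lama2 (chr10:27619659-27619858, minus strand): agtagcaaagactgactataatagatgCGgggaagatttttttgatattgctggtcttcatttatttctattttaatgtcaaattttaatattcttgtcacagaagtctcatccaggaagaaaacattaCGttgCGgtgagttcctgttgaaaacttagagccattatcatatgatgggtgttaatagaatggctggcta
Adcy8 (chr15:64922197-64922396, minus strand): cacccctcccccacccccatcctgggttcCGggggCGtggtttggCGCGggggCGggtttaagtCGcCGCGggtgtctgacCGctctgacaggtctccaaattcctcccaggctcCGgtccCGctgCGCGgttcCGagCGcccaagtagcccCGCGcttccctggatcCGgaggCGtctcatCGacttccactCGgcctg
Gm20388 (chr8:119910741-119910940, plus strand): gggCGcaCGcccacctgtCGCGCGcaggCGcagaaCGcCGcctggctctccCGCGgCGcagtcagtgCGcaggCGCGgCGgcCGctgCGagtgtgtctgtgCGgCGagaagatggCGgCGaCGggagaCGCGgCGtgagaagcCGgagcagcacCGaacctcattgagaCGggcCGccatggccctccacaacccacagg
Ank3 (chr10:69398673-69398872, plus strand): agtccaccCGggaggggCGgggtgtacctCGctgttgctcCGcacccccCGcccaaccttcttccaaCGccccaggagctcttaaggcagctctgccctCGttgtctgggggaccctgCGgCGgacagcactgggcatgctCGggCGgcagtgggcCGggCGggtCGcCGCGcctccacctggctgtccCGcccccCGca
Anks1b (chr10:89873409-89873608, plus strand): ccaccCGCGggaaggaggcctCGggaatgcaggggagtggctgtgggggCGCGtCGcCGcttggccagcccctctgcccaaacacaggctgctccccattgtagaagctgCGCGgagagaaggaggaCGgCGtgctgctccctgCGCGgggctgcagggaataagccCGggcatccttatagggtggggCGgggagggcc
Trappc9 (chr15:73061105-73061304, minus strand): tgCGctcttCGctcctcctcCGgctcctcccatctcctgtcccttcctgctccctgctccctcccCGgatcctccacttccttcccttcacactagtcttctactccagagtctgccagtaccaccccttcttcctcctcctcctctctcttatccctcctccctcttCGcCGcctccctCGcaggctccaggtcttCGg

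The starts of Syne1 (nesprin-1, which links the nucleus to the cytoskeleton) and Lama2 (a laminin chain of basement membranes) held 2 and 3 CG in 200 bases. Those of Syn3 (a synapsin of synaptic vesicles) and Adcy8 (an adenylyl cyclase) held 14 and 21. Outside the blocks, Gm20388 held 29 CG, Ank3 (ankyrin-G) 18, Anks1b 15 and Trappc9 (a vesicle trafficking factor) 8. The groups therefore overlapped in these 8 sequences, and the comparison over all genes follows further on.

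The blocks covered 80.4 Mb, or 24.6% of the 327 Mb in the H3K9me1 list, although they were 3.78% of its regions. The median width was 42.00 kb, the quartiles were 34.50 and 55.50 kb and the 90th percentile was 75.75 kb. There were 523 blocks of at least 50 kb, 73 of at least 100 kb and 5 of at least 200 kb. At the threshold, 74 blocks measured exactly 30 kb, 69 measured 30.75 kb, and 67 regions of 29.25 kb, 1 bin of 750 bp narrower, stayed outside. One further region of at least 30 kb lay on the X chromosome and was not a member.

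The chromosomes shared the blocks unequally. Chromosome 10 held 620, chromosome 15 held 315, chromosome 8 held 286 and chromosome 17 held 100, together 81.8% of all blocks. Chromosomes 5, 19, 2, 9, 11, 14 and 1 held 77, 52, 40, 36, 35, 28 and 10. Chromosomes 4, 3, 7, 13, 18 and 12 held 7, 2, 2, 2, 2 and 1, and chromosomes 6 and 16 held 0. Blocks took up 46.96% of the H3K9me1 bases on chromosome 10 and 26.55% of that chromosome, against 7.914% and 0.9606% on chromosome 2. H3K9me1 regions of any width covered 56.54% of chromosome 10, 46.81% of chromosome 15, 35.53% of chromosome 8, 31.01% of chromosome 19, 26.50% of chromosome 17 and 12.14% of chromosome 2. Of the 19 autosomes, chromosome 10 was also the most covered by H3K9me2 (58.95%) and H3K9me3 (58.77%). Input coverage per chromosome is not in the lists, and its part in these differences was not tested. The tests below were therefore paired within chromosomes, over the 11 chromosomes with at least 10 blocks, while counts by class and by gene list were pooled over chromosomes.

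**Figure D1:**
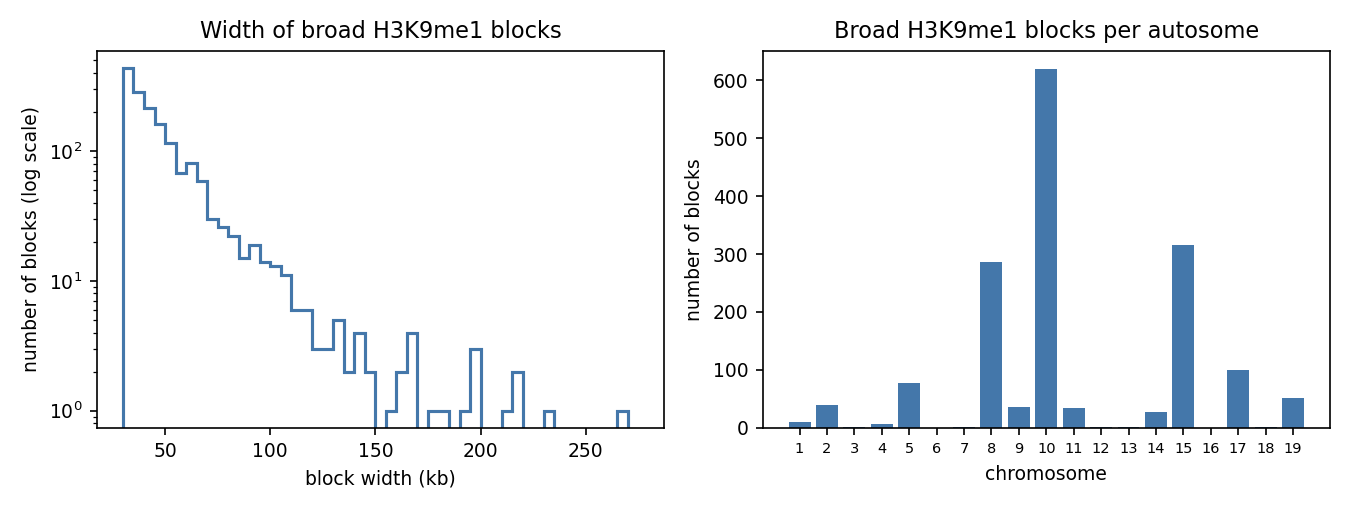
Left, number of blocks (log scale) by width in steps of 5 kb; right, number of blocks on each of the 19 autosomes. Most blocks are near the 30 kb threshold, with a tail to 267.8 kb, and chromosomes 10, 15 and 8 hold the highest numbers (620, 315 and 286).

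Blocks lay close to other H3K9me1 regions. The gap to the next H3K9me1 region had a median of 2.250 kb over 3229 gaps, 47.5% of gaps were 1.5 kb or less and 72.4% were 3 kb or less. In the 1.5 kb just outside a block edge, H3K9me1 covered 12.2% of the bases by other regions, and at 7.50 kb outside it covered 78.2%. Thus many blocks were parts of longer stretches of H3K9me1 with short breaks.

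Genes were taken from GENCODE M21. Protein-coding gene bodies, from the first to the last annotated base, made up 62.6% of the bases in blocks, and gene bodies of any type 68.1%. Of the 1615 blocks, 894 met 1 protein-coding gene, 382 met 2 or more (at most 14) and 339 met none. There were 517 blocks (32.0%) that lay entirely inside 1 protein-coding gene, and 144 blocks met no annotated gene of any type. These counts include Gm20388, a model on chromosome 8 that reads across many other genes and met 33 blocks. They were not redone without it.

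Averaged over the 11 chromosomes, 70.4% of block bases and 58.4% of the bases of narrower H3K9me1 regions lay in protein-coding gene bodies. The difference of 12 percentage points (SD 8.23 over chromosomes, higher on 10 of 11) was past the threshold in an exact two-sided sign-flip permutation test over chromosomes (p = 0.00391, adjusted p = 0.00558 over 10 tests). Chromosome 1 went the other way, at 56.5% against 67.3%, with only 10 blocks. Compared with the wider of the narrower regions alone, those of 10 kb up to 30 kb, the difference was 6.06 percentage points and not past the threshold (adjusted permutation p = 0.0708). Gene models that overlap or read through neighbours count once in these shares.

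A block met 1429 of 20807 protein-coding genes on the autosomes, which is 6.87%, and covered at least 50% of the body in 998, which is 4.80%. On the 11 chromosomes with at least 10 blocks, 1416 of 12683 genes were met, or 11.2%. Whole gene bodies lay inside a block in 337 cases. The share met differed with gene length and was highest for genes of 100 to 300 kb. On these 11 chromosomes 5.99% of genes under 10 kb were met, 8.67% of genes of 10 to 30 kb, 16.8% of genes of 30 to 100 kb, 24.0% of genes of 100 to 300 kb and 16.0% of longer genes. The median length was 37.7 kb for genes met and 17.6 kb for all protein-coding genes.

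Blocks lay towards the 3' ends of genes. A gene end (the last annotated base in the direction of transcription) lay in a block for 1087 genes and a gene start for 510. Of the genes met, 688 had only their end in a block, 111 only their start, 399 both and 231 neither. No gene start was found in 1262 blocks (78.1%), and no gene end in 899 (55.7%). Averaged over the 11 chromosomes, 4.72% of gene starts and 9.94% of gene ends lay in blocks, a difference of -5.22 percentage points (SD 6.21). Starts were fewer than ends on 11 of 11 chromosomes (exact two-sided sign-flip permutation p = 0.000977, the smallest that 11 chromosomes allow, adjusted p = 0.00195). On chromosome 10 the shares were 18.2% of starts and 35.6% of ends, on chromosome 15 they were 16.4% and 30.6%, and on chromosome 2 they were 1.14% and 2.17%.

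For the 919 genes met with their start outside, the first block base downstream was at a median of 12.9 kb from the start (quartiles 2.14 and 37.4 kb), and within 3 kb in 272 genes. Where a gene end lay in a block, that block ran on for a median of 20.6 kb past the end (quartiles 9.67 and 33.5 kb). In the 827 genes of at least 30 kb that a block met, block coverage rose from 25.1% in the first 5% of the gene body to 70.1% between 85% and 90% of its length, and was 66.0% in the last 5%. H3K9me1 regions of any width covered 50.8% of the first 5% and 90.3% of the last 5%. These H3K9me1 shares come from the list that chose the genes and are given as a description. H3K9me2 went from 25.2% to 35.1% and H3K9me3 from 21.9% to 31.1% between the same steps, with 31.8% and 26.3% already reached in the second 5%.

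**Figure D2:**
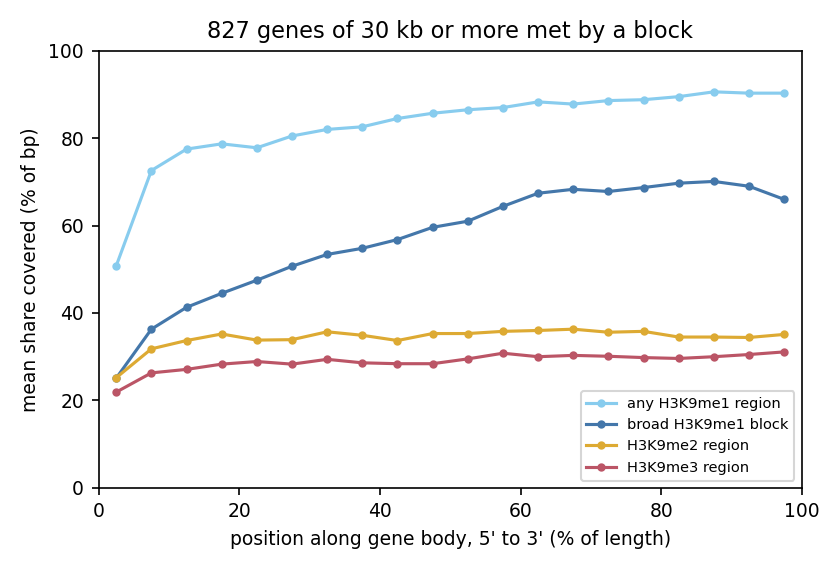
Mean share of bases covered (%, vertical axis) in 20 equal steps from the 5' to the 3' end of 827 protein-coding genes of at least 30 kb met by a block. The curve of broad blocks climbs from 25.1% to about 70% along the gene, whereas from the second step onwards H3K9me2 lies between 31.8% and 36.3% and H3K9me3 between 26.3% and 31.1%.

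Annotated starts inside blocks were poor in CG. For each gene the outermost annotated 5' base was taken as its start, and other transcript starts were not examined. The CpG observed/expected ratio, the number of CG over the number that the C and G content would give, was taken over 500 bp either side of the start. Its median was 0.254 for the 510 starts inside a block, 0.749 for the 919 genes met only elsewhere in the body, and 0.568 for all 20807 protein-coding genes. A ratio of at least 0.6 was found at 13.5% of starts inside blocks, at 74.9% of starts outside and at 47.2% of all starts. In the average of chromosome medians the ratio was 0.268 inside and 0.735 outside, a difference of -0.467 (SD 0.0867), lower inside on 11 of 11 chromosomes (exact two-sided sign-flip permutation p = 0.000977, adjusted p = 0.00195). With H3K9me1 regions up to 1.5 kb apart joined, the difference was -0.436 (adjusted exact permutation p = 0.00163). Of the gaps beside blocks, 47.5% were that short, so longer breaks still ended blocks. The part of breaks at starts in this result was not tested. The pattern was not particular to wide regions, since the 1642 starts in narrower H3K9me1 regions had a median ratio of 0.243. Read coverage at CG-rich starts is not in the lists, and its part in this result was not tested. Thus the CG-poor starts of Syne1 (0.2146) and Lama2 (0.1938) were typical of starts inside blocks, and that of Adcy8 (0.6945) was not. The start of Syn3, with 14 CG in its 200 bases, also had a ratio below 0.6 in this wider window (0.3503).

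**Figure D3:**
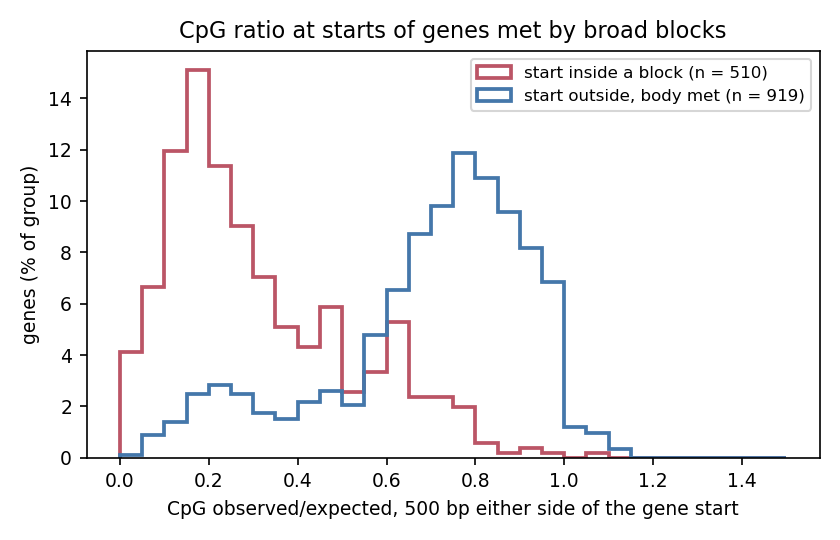
CpG observed/expected ratio (horizontal axis, steps of 0.05) against the share of genes (%) for genes met by blocks, with 510 starts inside a block and 919 outside. Starts inside blocks peak below 0.25 and starts outside peak between 0.7 and 0.9, with an overlap of the 2 groups.

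H3K9me2 covered 62.7% of all block bases and H3K9me3 53.4%, 50.5% carried both and 34.5% carried neither. The shares were spread towards both extremes. H3K9me2 was absent from 255 blocks and covered 222 blocks over their whole length, and H3K9me3 was absent from 380 and covered 194 whole. Quartiles of the H3K9me2 share were 17.1%, 73.8% and 95.5%, and those of the H3K9me3 share were 3.43%, 50% and 90.5%. The H3K9me2 share was the higher in 945 blocks, the H3K9me3 share in 247, and the shares were equal in 423. Over the 1615 blocks the shares had a Spearman's rho of 0.921, a description only, since blocks share chromosomes and neighbours. Where H3K9me3 lay in a block, 94.6% of its bases carried H3K9me2 as well, and 80.6% of the H3K9me2 bases in blocks carried H3K9me3.

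**Figure D4:**
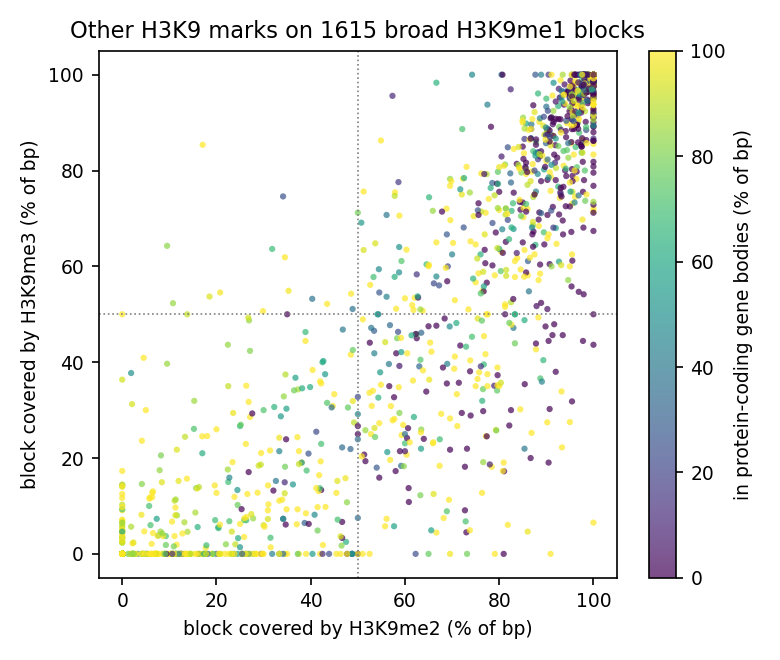
Each point is 1 of the 1615 blocks, placed by the share of its bases (%) covered by H3K9me2 and by H3K9me3 and coloured by the share in protein-coding gene bodies. Dotted lines mark 50%. Blocks gather in the corner with neither mark, where most are genic, and in the corner with both, where many are not.

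With at least 50% of the length counted as covered, 797 blocks (49.3%) carried both other marks, 600 (37.2%) neither, 201 (12.4%) H3K9me2 alone and 17 (1.05%) H3K9me3 alone. Which of the main classes was larger depended on this limit, since with at least 80% counted as covered 538 blocks carried both marks and 875 neither. The gene content of these classes differed. Blocks with neither mark lay in protein-coding gene bodies over 85.8% of their bases, and 16 of 600 met no protein-coding gene. Blocks with both marks did so over 48.8% of their bases, and 266 of 797 (33.4%) met no protein-coding gene. The gap was found within each of the 4 chromosomes with the most blocks. On chromosome 8, gene bodies made up 89.7% of 131 blocks with neither mark and 46.7% of 115 blocks with both, and on chromosome 10 they made up 86.4% of 87 and 49.6% of 455. The chromosome 8 shares count the Gm20388 model as a gene body. On chromosome 15 the shares were 83.9% of 114 and 50.3% of 150, and on chromosome 17 they were 84.4% of 51 and 52.6% of 38. The repeat-masked share was 23.3% in blocks with neither mark and 29.5% in blocks with both. A gene start lay in 14.5% of blocks with neither mark and in 27.6% of blocks with both. These shares are pooled, and chromosome 10 held 57.1% of the blocks with both marks and 14.5% of those with neither. These classes were described and not tested.

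Chromosomes differed in the mixture of classes. On chromosome 10, 73.39% of blocks carried both other marks and 14.03% neither. Both marks were on 47.62% of blocks on chromosome 15, on 40.21% on chromosome 8 and on 38.00% on chromosome 17. On chromosomes 2, 5, 9 and 11, neither mark reached 50% of the length in 92.50%, 80.52%, 80.56% and 85.71% of blocks. These chromosomes as a whole were covered by H3K9me2 over 2.690%, 10.36%, 11.39% and 6.244%, against 58.95% of chromosome 10. On chromosomes 3, 4, 7, 12 and 13, with 1 to 7 blocks each, every block was in the class with both marks, and both blocks on chromosome 18 carried neither. On each of these chromosomes H3K9me1 covered at most 0.7142% of the length. The part of chromosome-wide coverage in these mixtures was not tested.

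H3K9me2 and H3K9me3 took a larger share of broad blocks than of narrower H3K9me1 regions of the same chromosome. The mean over chromosomes was 41.1% against 29.2% for H3K9me2, a difference of 11.9 percentage points (SD 12.7, higher on 11 of 11 chromosomes, exact sign-flip permutation p = 0.000977, adjusted p = 0.00195). For H3K9me3 it was 29.9% against 19.6%, a difference of 10.3 percentage points (SD 12.7, higher on 10 of 11, exact sign-flip permutation p = 0.00391, adjusted p = 0.00558). On chromosome 10 the H3K9me3 share was 72.4% in blocks and 58.7% in narrower regions, on chromosome 17 it was 48.5% and 20.5%, and on chromosome 9 it was 6.28% and 7.74%. The difference on chromosome 1, of 39.3 percentage points for H3K9me3 and 43.6 for H3K9me2, rested on 10 blocks, and without that chromosome the mean differences were 7.43 and 8.72 percentage points and still past the threshold. Within blocks the H3K9me2 share exceeded the H3K9me3 share by 11.2 percentage points (SD 4.74, higher on 11 of 11, exact sign-flip permutation p = 0.000977, adjusted p = 0.00195).

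**Figure D5:**
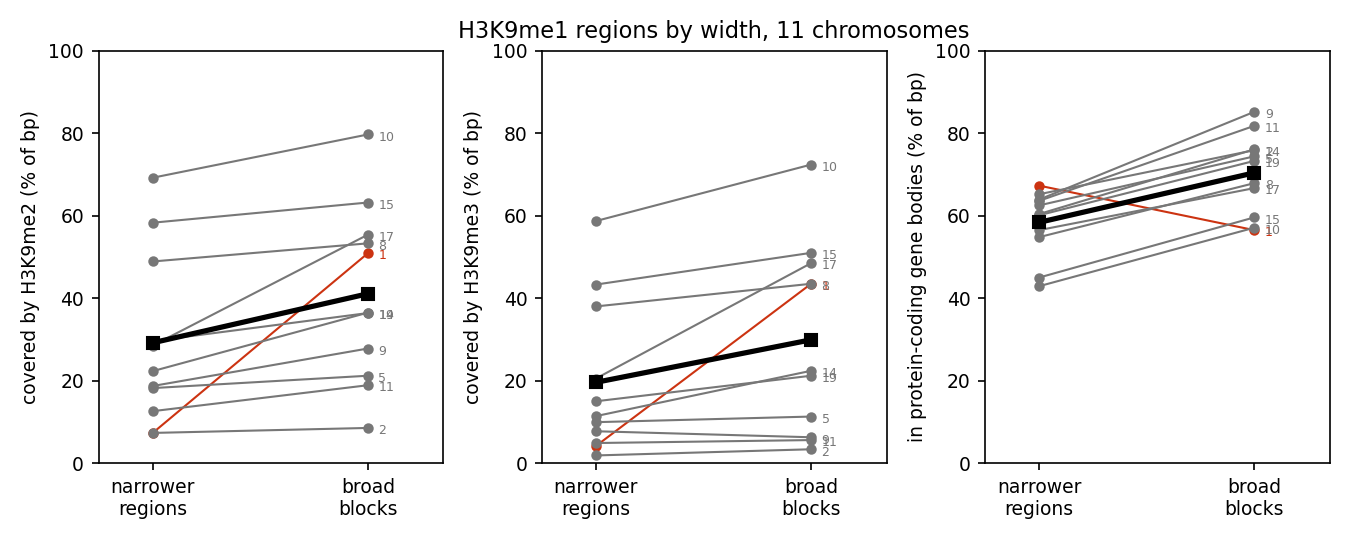
For each of 11 chromosomes (grey, numbered, chromosome 1 in red) and their mean (black squares), the share of bases (%) covered by H3K9me2, by H3K9me3 and by protein-coding gene bodies is joined from narrower H3K9me1 regions to broad blocks. H3K9me2 is higher in blocks on all 11 chromosomes, H3K9me3 on 10 and gene bodies on 10.

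Compared with the 30 kb on either side, blocks held more H3K9me2 (41.1% against 24.9%, a difference of 16.2 percentage points, SD 10.9, higher on 11 of 11 chromosomes, exact sign-flip permutation p = 0.000977, adjusted p = 0.00195). For H3K9me3 the values were 29.9% and 18.9%, a difference of 11 percentage points (SD 11.7, higher on 8 of 11, exact sign-flip permutation p = 0.00977, adjusted p = 0.0122). Chromosomes 5, 9 and 11 went the other way for H3K9me3, with differences of -0.309, -1.23 and -1.38 percentage points. With the 6 chromosomes of at least 50 blocks the H3K9me3 difference was 13.2 percentage points and not past the threshold (adjusted permutation p = 0.0625). Pooled over blocks rather than averaged over chromosomes, both marks dipped at block edges. Chromosome 10 held 38.4% of the blocks, so the following values cannot be set against the means above. H3K9me2 covered 60.5% at 13.5 kb inside, 44.3% in the first 1.5 kb inside, 25.2% in the first 1.5 kb outside and 49.3% at 7.50 kb outside. H3K9me3 covered 50.3%, 36.7%, 24.9% and 42.3% at the same places. The repeat-masked share was 26.9% at 13.5 kb inside, 33.7% in the first 1.5 kb outside and 30.3% at 7.50 kb outside, and the part of read mapping in these dips was not tested.

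GC and repeat content of blocks and narrower regions did not differ past the threshold. GC was 46.2% and 45.5%, a difference of 0.701 percentage points (SD 1.59, higher on 9 of 11, exact sign-flip permutation p = 0.183, adjusted p = 0.203). The repeat-masked share was 24.6% and 25.6%, a difference of -1.02 percentage points (SD 3.73, lower on 9 of 11, exact sign-flip permutation p = 0.414, adjusted p = 0.414). Chromosome 1, with its 10 blocks, decided both. Without it the GC difference was 1.13 (adjusted permutation p = 0.00558) and the repeat difference -2.05 percentage points (adjusted permutation p = 0.00732).

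The widest blocks mostly carried all 3 marks. The block on chromosome 10 from 41024251 to 41292000 (267.8 kb) met Gpr6, an orphan receptor, and Fig4, a phosphoinositide phosphatase. A block of 218.2 kb on chromosome 17 from 12417001 to 12635250 held the start and the end of the organic cation transporters Slc22a3 and Slc22a2 and the end of Plg (plasminogen). It carried H3K9me2 over 99.66% and H3K9me3 over 96.91% of its length. The block on chromosome 10 from 61892251 to 62105250 (213.0 kb) met Col13a1, a transmembrane collagen, over 40.78% of its length and held its start. The block on chromosome 15 from 72822751 to 73022250 (199.5 kb) lay wholly inside Trappc9, with H3K9me2 over 88.35% and H3K9me3 over 57.14%. The block on chromosome 17 from 3571501 to 3768750 (197.2 kb) held the gene Nox3, an NADPH oxidase of the inner ear. Gene clusters made up 2 of the 10 widest. One, on chromosome 10 from 127740751 to 127937250 (196.5 kb), met 10 protein-coding genes with the retinol dehydrogenases Rdh1, Rdh7, Rdh9, Rdh16 and Rdh19 among them. The other, on chromosome 15 from 82366501 to 82560750 (194.2 kb), held 5 genes of the Cyp2d family of cytochromes P450. The exception among the 10 was the block on chromosome 15 from 86326501 to 86507250 (180.8 kb), with 95.16% of its length in Tbc1d22a, a gene of the Rab GTPase-activating family, 27.39% under H3K9me2 and 8.299% under H3K9me3.

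Of the blocks of at least 100 kb, the 5 with the least H3K9me2 and H3K9me3 had 75.57% to 100% of their bases in protein-coding gene bodies, and 1 lay entirely inside a gene. A block of 140.2 kb on chromosome 18 and 1 of 110.2 kb on chromosome 5 (140017501 to 140127750) carried 0% of either mark. The former lay over 91.77% in Dym, a gene of Golgi organisation, and the latter entirely inside Mad1l1, a spindle checkpoint gene. Of the whole of chromosome 18, H3K9me2 covered 0% and H3K9me3 0.2444%, so little of either could be met there. Next came the Tbc1d22a block. The block of 125.2 kb on chromosome 17 from 5253001 to 5378250 lay over 75.57% in Arid1b, a subunit of BAF chromatin remodelling complexes, with 25.15% H3K9me2 and 26.95% H3K9me3. The block of 102.0 kb on chromosome 10 from 83545501 to 83647500 held the ends of Washc4 and Appl2, both endosomal genes, with 23.53% and 29.41%. The 221 blocks without any H3K9me2 or H3K9me3 covered 9.14 Mb, lay over 93.3% in protein-coding gene bodies and were found on 12 chromosomes. They were 39 of 286 blocks on chromosome 8, 36 of 77 on chromosome 5, 29 of 40 on chromosome 2 and 28 of 100 on chromosome 17.

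At the other end, 145 blocks were covered whole by both other marks. They came to 6.68 Mb, 85 of them were on chromosome 10, and protein-coding gene bodies made up 34.8%. Blocks of at least 100 kb with the highest sums included 1 of 102.0 kb over the vomeronasal receptor genes Vmn2r80 and Vmn2r81 (chromosome 10, 79176751 to 79278750). Another of 176.2 kb met Edar, the ectodysplasin receptor (chromosome 10, 58584751 to 58761000), and both had 100% of either mark. A block of 102.8 kb lay inside the collagen gene Col22a1 (chromosome 15, 71918251 to 72021000, 99.27% H3K9me3) and 1 of 100.5 kb inside the cilium gene Cfap54 (chromosome 10, 92808751 to 92909250, 99.25% H3K9me3). The last, of 168.8 kb (chromosome 10, 77781001 to 77949750), met 14 protein-coding genes, among them Tspear, Krtap10-4, Krtap10-10 and Trpm2.

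The protein-coding genes with the most bases in blocks were long. Gm20388 (chromosome 8, 119910841 to 124345722) ranked highest with 1468 kb in 33 blocks, but this model of 4435 kb reads across many other genes, and the gene-body comparison without it gave 11.8 percentage points. Ank3, which anchors membrane proteins to the cytoskeleton (chromosome 10, 69398773 to 70027438), had 455.2 kb, or 72.41% of its body, in 9 blocks. Anks1b had 426.6 kb, Trappc9 398.2 kb and Syne1 341.6 kb. Cdh23, a cadherin of hair cells, had 310.5 kb, Sh3rf3 277.4 kb, Syn3 273.5 kb and Zdhhc14, a palmitoyltransferase, 258.6 kb or 98.97% of its body. Of the 20 genes with the most, 4 had their start in a block (Syne1, Syn3, Lama2, Adcy8).

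These genes differed in the other marks on the part inside blocks. H3K9me3 lay on 98.74% of it in Cfap54, 97.34% in Plekhg1, 96.76% in Hydin (an axoneme gene), 96.66% in Anks1b, 91.84% in Adcy8 and 87.00% in Esr1 (oestrogen receptor alpha). It lay on 57.65% in Ank3, 56.30% in Syne1, 47.76% in Lama2 and 39.93% in Btbd11. In Tbc1d22a it lay on 5.307%. Pard3, a cell polarity gene with 245.2 kb in 5 blocks, had 0% H3K9me3 and 10.09% H3K9me2. Dym had 0% of both, but lay on chromosome 18, of which H3K9me2 covered 0% and H3K9me3 0.2444%. Long genes in blocks thus ranged from little or no other H3K9 mark to nearly complete cover by both.

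Over all 1429 genes met, 37.0% had at least 50% of the part inside blocks under both other marks and 51.3% under neither, with medians of 37.5% for H3K9me2 and 18.2% for H3K9me3. Genes with the start in a block had both marks in 65.5% (334 of 510) and medians of 95.2% and 88.9%. Genes with the start outside had both marks in 21.2% (195 of 919) and medians of 6.58% and 0%. The 337 genes that lay wholly in blocks had both marks in 71.5%. By chromosome, genes met on chromosome 10 had both marks in 61.2% of 448 and those on other chromosomes in 26.0% of 981. These are counts over genes, which are not independent of their neighbours.

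Gene lists chosen for this cell type were read against the 6.87% of all protein-coding autosomal genes met, and 11.2% on the 11 chromosomes. Among genes of signalling, adhesion and chromatin, the 9 that blocks met had neither other mark on 50% of the part inside. The same held for 51.3% of all genes met, 62.8% of those off chromosome 10 and 68.9% with the start outside. Whether the 9 differ from these shares was not tested. Blocks met 2 of 33 genes of TGF-beta, BMP and Hippo signalling (6.06%), 2 of 30 of receptor tyrosine kinase and MAPK signalling (6.67%), 3 of 28 of the actin cytoskeleton and adhesion (10.7%) and 2 of 22 H3K9 methyltransferase, demethylase and HP1 genes (9.09%). Smad1, a transducer of BMP signals, had 46.86 kb or 76.66% of its body in 2 blocks, with 0% of either other mark, and Kdm4b, an H3K9 demethylase, had 39.62 kb with 0% of either. Jmjd1c, a relative of the H3K9 demethylases, had 39.83 kb with 5.650% H3K9me2 and 0% H3K9me3. Igf2r, the imprinted receptor for IGF2, had 54.84 kb with 4.276% H3K9me2 and 8.378% H3K9me3, and Ptk2 (focal adhesion kinase) had 108.9 kb with 4.132% and 6.887%. In each of the genes just named the start lay outside and the end inside a block. Other members of these lists differed. Stk3 had 49.93 kb with its start and its end in blocks, 33.39% H3K9me2 and 4.849% H3K9me3. Palld had 79.44 kb with its start but not its end in a block, 38.63% and 9.366%. Myh10 and Prkce had neither end in a block and 0% of either mark.

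Genes of the fibroblast matrix were mixed. Blocks met 5 of 30 (16.7%), each at its end and not at its start. Of the 5, Col18a1, Col6a2, Col6a1 and Timp3 lay on chromosome 10, and Fbln1 on chromosome 15. H3K9me2 covered 79.75% and H3K9me3 72.37% of all block bases on chromosome 10. On chromosome 15 they covered 63.16% and 50.96%. Fbln1 (fibulin-1) had 57.28 kb in blocks with 80.36% H3K9me2 and 71.20% H3K9me3, and Col18a1 had 29.82 kb with 84.91% and 79.88%. The collagen VI genes Col6a2 and Col6a1 were covered by blocks over 84.28% and 93.28% of their bodies, with H3K9me2 on 100% and 90.75% of that part and H3K9me3 on 61.68% and 21.34%. Timp3, an inhibitor of metalloproteinases, had 8.756 kb in a block with 5.779% and 22.91%. Of the 27 ubiquitously expressed reference genes, 0 were met, with a median length of 10.7 kb and 16 of them on the 11 chromosomes.

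Genes known from other tissues gave other values, in which tissue and chromosome were not separated. Blocks met 10 of 46 neuronal and synaptic genes (21.7%), whose median length of 452 kb is far above that of all genes. Of the 10, 7 had both other marks on at least 50% of the part inside blocks. Of these 7, Syn3, Ctnna3, Pcdh15 and Syt1 lay on chromosome 10, and Cacna1a, Kcnq3 and Shank3 did not. All genes met on chromosome 10 had both marks in 61.2%, and those on other chromosomes in 26.0%. Syn3 had 273.5 kb with 89.03% H3K9me2 and 72.63% H3K9me3, Cacna1a (a neuronal calcium channel) 165.0 kb with 86.82% and 78.64%, and Kcnq3 (a potassium channel) 106.5 kb with 100% of each. Rbfox3, a neuronal splicing factor, had 38.25 kb with 0% of either. Of 25 epithelial and liver genes 5 were met (20%), each with its start in a block, and of 29 blood cell genes only Lyz2 (lysozyme) was.

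Keratin genes, which encode the intermediate filaments of epithelia and hair, were counted together with keratin-associated genes (Krtap). Of this list, 20 of 113 genes were met (17.7%), all with the start in a block and 19 as whole genes. Both other marks lay on at least 50% of 18 of the 20, and medians were 100%. Of all 337 genes that lay wholly in blocks, 71.5% had both marks, and their medians were also 100%. Whether the 20 differ from these was not tested. The 18 keratin genes among the 20 lay in 5 blocks on chromosome 15 between 101393251 and 101928750. The others, Krtap10-4 and Krtap10-10, lay on chromosome 10. The block with Krt7, Krt87 and Krt88 (60 kb) carried 56.25% H3K9me2 and 21.25% H3K9me3. The next, with Krt84, Krt82, Krt90 and Krt75 (75.75 kb), carried 91.09% and 81.19%. That with Krt6b, Krt6a, Krt5 and Krt71 (97.50 kb) carried 98.46% and 88.46%, that with Krt72 and Krt73 (33.00 kb) 100% of each, and that with Krt2, Krt1, Krt77, Krt76 and Krt4 (120.0 kb) 98.12% and 96.88%. H3K9me3 was thus lowest in the block that held Krt7, a keratin of simple epithelia, and Krt7 itself had 24.98% H3K9me2 and 0% H3K9me3.

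Blocks met 33 of 1127 olfactory receptor (Olfr) genes (2.93%, or 4.24% of the 779 on the 11 chromosomes), which encode odorant receptors. Both other marks lay on at least 50% of the part inside blocks in 30 of the 33. The same held for 37.0% of all genes met and 65.5% of those with the start in a block. Most of the 33 lay on chromosome 10, where 61.2% of all genes met had both marks. Whether the 33 differ from these shares was not tested. Of these genes 32 had their start in a block and 28 carried both marks over the whole part inside blocks. They lay in 15 blocks with an H3K9me3 share from 83.8% to 100%. On chromosome 10, the block from 129003001 to 129113250 (110.2 kb) met 7 of them, Olfr763 to Olfr769, with 93.20% H3K9me2 and 95.24% H3K9me3. Of 328 vomeronasal receptor (Vmn) genes 5 were met (1.52%, or 7.35% of the 68 on the 11 chromosomes), all on chromosome 10 and all covered by both marks over the part in blocks. Beta defensin genes were met in 0 of 42 cases, all of them on the 11 chromosomes, with a median length of 3.18 kb. Receptor, keratin and defensin genes have close copies, and how reads that fit several copies were placed was not given in the sources used here.

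Zinc finger (Zfp) genes were met in 19 of 385 cases (4.94%), of which 9 had both marks and 8 neither. Zfp827 had 71.02 kb with 8.449% H3K9me2 and 0% H3K9me3, while Zfp936 on chromosome 7 had 45.36 kb with 100% of each. Chromosome 7 held 2 blocks, both with 100% of each mark. Among solute carrier (Slc) genes, membrane transporters, 34 of 358 were met (9.50%), with both marks in 18 and neither in 9. Slc35f3 had 96.17 kb, or 99.23% of its body, with 100% of each mark. Slc38a1, an amino acid transporter, had 42.83 kb with 1.945% and 5.253%, and Slc25a17, a peroxisomal carrier, 41.09 kb with 3.651% and 10.95%.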

How the data were processed

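ChIP-seq was done in wild-type MEFs for H3K9me1, H3K9me2, H3K9me3 and input, with 2 replicates each. According to the study's methods and the submitters' processing notes, the authors aligned reads to mm10 (GRCm38) with BWA 0.7.1 and called enriched regions with histoneHMM, a hidden Markov model over bins. The deposited files give chromosome, start and end of each region on a 750 bp grid, with 1 list per mark. How replicates and input entered the call, and its threshold, was not given in the sources used here, and depth per region is unknown. A minimum width stood in for a stricter calling threshold.

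Region starts were taken to count from 1, with the end base included. Shares are of bases, and genes are from GENCODE M21. GC, repeat-masked and CpG values came from the GRCm38 sequence. Each difference was tested by an exact two-sided sign-flip permutation over the 11 autosomes with at least 10 blocks, with Benjamini-Hochberg adjustment over 10 tests and a threshold of 0.05. Chromosomes are not biological replicates, so the p-values measure how evenly a difference holds along 1 genome map. The functions were tested on simulated data. Named were the 10 widest blocks, the 5 lowest and 5 highest in other marks of at least 100 kb, the 20 genes with most bases in blocks, and listed genes met; 1 gene that the rule names is not reported here. Members and lists were chosen with earlier results of these data known. Python 3.11.15, NumPy 2.4.6 and pandas 2.3.3 were used.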

Additional observations from a re-analysis of the deposited data

How the results depend on the processing

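No paired analysis was possible between replicates because each mark has a single region list without replicate values, so no replicate could be left out either. Leaving out each chromosome in turn gave differences of 8.72 to 13.0 (H3K9me2 in blocks against narrower regions), 7.43 to 11.5 (H3K9me3), 10.1 to 11.8 (H3K9me2 minus H3K9me3), 14.1 to 17.5 and 8.77 to 12.2 (H3K9me2 and H3K9me3 against flanks), 11.1 to 14.3 (gene bodies), -5.71 to -4.01 (starts minus ends), 0.552 to 1.13 (GC) and -2.05 to -0.709 percentage points (repeats), and -0.489 to -0.458 for the CpG ratio. No difference changed direction under any alternative.

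At a minimum of 50 kb only 4 chromosomes had 10 blocks, so no test could pass. The differences were 18.5, 22.0, 7.45, 19.9, 18.0, 11.7 and -4.39 percentage points in the order above up to starts minus ends, and -0.481 for the CpG ratio (adjusted exact permutation p = 0.139 each). There were then 523 blocks, with 331 under both other marks, 49 under H3K9me2 alone, 5 under H3K9me3 alone and 138 under neither, and 589 genes met, 428 over at least 50%. At a minimum of 20 kb there were 3198 blocks, 2367 genes met and 1592 over at least 50%, and the GC difference of 0.820 percentage points passed. With regions up to 1.5 kb apart joined, 2320 genes were met, 1807 over at least 50%, and the GC (1.13) and repeat (-1.42) differences passed. With chromosomes of at least 50 blocks, GC (1.17) and repeats (-1.71) passed and H3K9me3 against flanks (13.2) did not. Against regions of 10 kb up to 30 kb the gene-body difference (6.06) did not pass. With all annotated genes, 2612 were met and 2087 over at least 50%. At 80% counted as covered, 9 blocks carried H3K9me3 alone, 538 both marks and 875 neither, which turned the order of both and neither, and at 20%, 1016 carried both and 398 neither. Of the shares of the 20 named genes in blocks under these alternatives, 51 moved and 29 did not. A share moved if it left a Wilson interval around the main value, with each 750 bp bin as 1 trial. Bins of a block are not independent, so this is a description. A lower minimum width could only raise a share, and a higher one only lower it. The version without Gm20388 was chosen after seeing the data.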
